A study of Mus musculus with 6 samples.

Results

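The clustered histone genes are the protein-coding genes of the mouse Hist1 to Hist4 loci, which encode the linker histone H1 and the core histones H2A, H2B, H3 and H4. They were taken as every row of the gene count table whose Ensembl identifier belongs to a protein-coding gene with a Hist1h, Hist2h, Hist3h or Hist4h symbol in GENCODE M21. This gave 65 of the 46983 genes in the table, of which 6 encode H1, 18 H2A, 16 H2B, 12 H3 and 13 H4. By chromosome, 52 lie on chromosome 13, 10 on chromosome 3, 2 on chromosome 11 and 1 on chromosome 6. Hist1h2bm and Hist1h2bh were not analysed here.

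RNAseq was performed on GFP-positive neural crest cells (NCCs), sorted by flow cytometry from mouse embryos at E11.25. All embryos carried a single Wnt1 Cre allele (Wnt1 Cre/+), which drives recombination in the neural crest lineage, and a single reporter allele (Rosa26 mTmG/+). The 3 control samples were BAF155 flox/+ together with BAF170 flox/+, and the 3 deficient samples were flox/flox for BAF155 and also for BAF170. BAF155 and BAF170, encoded by Smarcc1 and Smarcc2, are scaffold subunits of the BAF chromatin remodeling complex. GFP marks every cell with Cre activity in its history and does not itself report loss of BAF155 or BAF170, and the controls could themselves lose a single copy of each gene.

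Most clustered histone genes are replication-dependent. They are transcribed in S phase, when new DNA has to be packaged, and their mRNAs end in a short stem-loop in place of a poly(A) tail. The stem-loop is bound by Slbp, and cleavage just behind it is guided by the U7 snRNP, which contains Lsm10 and Lsm11. The libraries here were selected for poly(A) RNA, so the counts below describe the histone mRNA that came through that selection, including any polyadenylated form, and not the whole histone mRNA of the cells. In bulk samples such as these, fewer cells of a type and less RNA per cell cannot be told apart.

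The stem-loops are printed because they are the sequence that sets these mRNAs apart in a poly(A) library. For each gene, only the longest GENCODE M21 transcript with an annotated stop codon was read for this. A 16-base stem-loop was found in that of 43 of the 65 genes, in 8 forms. The 3 most frequent forms are written 5′ to 3′ as DNA, with the 4 bases of the loop in capitals.
H1, H2A, H2B and H3 form: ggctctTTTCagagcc
H4 form: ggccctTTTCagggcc
H1, H2B and H3 form: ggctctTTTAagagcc
The first form was found in 23 genes, namely 3 H1, 10 H2A, 5 H2B and 5 H3 genes. The second was found in 7 genes, all of them H4 genes, and the third in 6 genes.

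Clustered histone genes held a small share of every library, and that share varied as much among samples of the same genotype as between genotypes. The share was 0.0474%, 0.0654% and 0.0323% of all counts in controls 1, 2 and 3. In deficient samples 1, 2 and 3 it was 0.0457%, 0.0233% and 0.0264%. The groups overlapped, since deficient 1 lay above control 3 and close to control 1. The mean share was 0.0484% ± 0.0166 (SD, n = 3) in controls and 0.0318% ± 0.0122 (SD, n = 3) in deficient samples, a ratio of deficient to control of 0.657. The 95% Wilson interval of the share, which covers counting error only, ran from 0.0312% to 0.0333% in control 3 and from 0.0446% to 0.0469% in deficient 1. Scaled to normalized library size and written as CPM, so that samples of different depth can be set side by side, the summed level was 487, 717 and 309 CPM in controls and 452, 235 and 248 CPM in deficient samples. Control 2 stood 2.32-fold above control 3, and deficient 1 stood 1.92-fold above deficient 2, while the control mean was 1.62-fold the deficient mean.

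**Figure D1:**
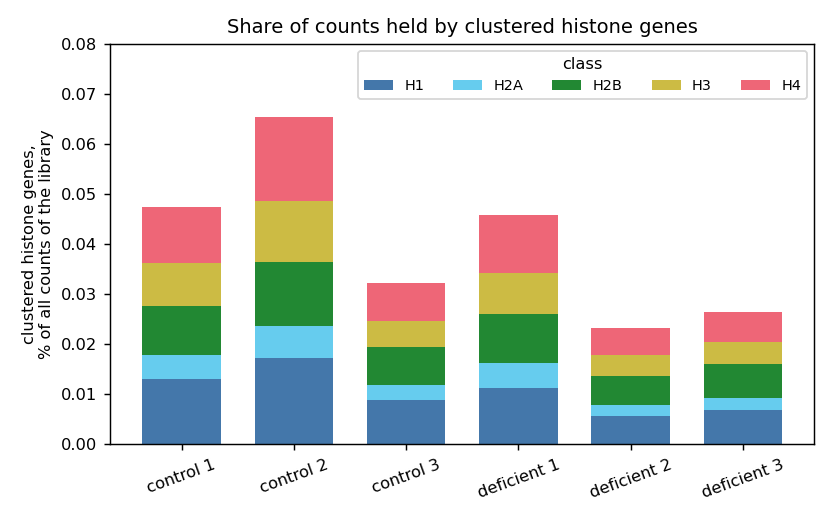
Share of all counts held by clustered histone genes (y axis, percent) in each of the 6 samples, with the bars divided by histone class. The whole bar is highest in control 2, at 0.0654%, and lowest in deficient 2, at 0.0233%, while deficient 1, at 0.0457%, is higher than control 3, at 0.0323%.

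The raw histone counts varied less than the depth of the samples. Between 3761 and 5776 counts fell on the 65 genes in a sample, a 1.54-fold range, while the total per sample ran from 8191219 to 19808620, a 2.42-fold range. Each deficient sample had more counts in all than each control sample, so depth and genotype cannot be told apart.

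Each histone class varied by a few percentage points in its part of the histone counts. Of all histone counts, 24.5% to 27.6% fell on H1 genes, 9.12% to 10.6% on H2A genes, 19.6% to 25.3% on H2B genes, 15.9% to 18.6% on H3 genes and 22.3% to 25.7% on H4 genes. The H1 share was 27.6%, 26.2% and 27.2% in controls and 24.8%, 24.5% and 25.8% in deficient samples. H1 was the only class without overlap, and control 2 and deficient 3 were close. The counting error of these shares was not computed, and an exact permutation test of 3 against 3 cannot go below p = 0.1. The H2B share was 20.4%, 19.6% and 23.4% in controls and 21.4%, 25.3% and 25.3% in deficient samples, and it overlapped. In every class the summed CPM overlapped between genotypes. The ratio of the deficient to the control mean of the summed CPM was 0.575 for H1, 0.616 for H2A, 0.703 for H2B, 0.608 for H3 and 0.604 for H4.

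Of the 65 genes, 49 passed the filter on low counts and were tested for a difference between genotypes together with all other genes. These were 5 H1, 12 H2A, 12 H2B, 9 H3 and 11 H4 genes. Of the 16 others, 6 had no count in any sample, namely Hist1h2aa, Hist2h2aa1, Hist2h2aa2, Hist2h2bb, Hist2h3b and Hist2h3c1. A count of 0 allows up to 3 counts per sample, or 0.142 to 0.401 CPM. In 5 of these 6, every 100-base window of the transcript also occurs in another gene, so no such window alone could assign a read to those 5. Longer stretches and read pairs were not examined. Hist1h2aa shares 10.3% of its windows. The remaining 10 had at most 20 counts in a sample.

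Calls required an adjusted p no higher than 0.1 (edgeR quasi-likelihood test, Benjamini-Hochberg), a log2 fold change no smaller than 0.58 in size and a mean level no lower than 2 CPM. By this rule Hist1h2ac and Hist1h3f were called lower in deficient samples, 2 of 49 tested members or 4.08%. Over all 13961 tested genes 4.88% were called lower, so by this test the members were called about as often as the background. By adjusted p alone the same 2 members were lower and none was higher, against 7.75% and 4.18% of all tested genes. No member was called higher, against 0.0573% of all tested genes, and none was higher at an unadjusted p under 0.05 by edgeR, DESeq2 or limma-voom. The log2 fold change of deficient over control was negative in 47 of the 49, against 52.3% of all tested genes. The median log2 fold change was −0.72 over the 49 and −0.02 over all tested genes. The values ran from −1.49 to 0.46, and the median standard error over the members was 0.46, against 0.17 over all tested genes. An unadjusted p under 0.05 with a negative value was reached by 4 members (8.16%) with edgeR, against 15.2% of all tested genes. With DESeq2 it was reached by 15 members (30.6%), against 12.9% of all, and with limma-voom by 13 (26.5%), against 16.5%. In 2 members every deficient sample was below every control sample, while 16.4% of all tested genes showed this.

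**Figure D2:**
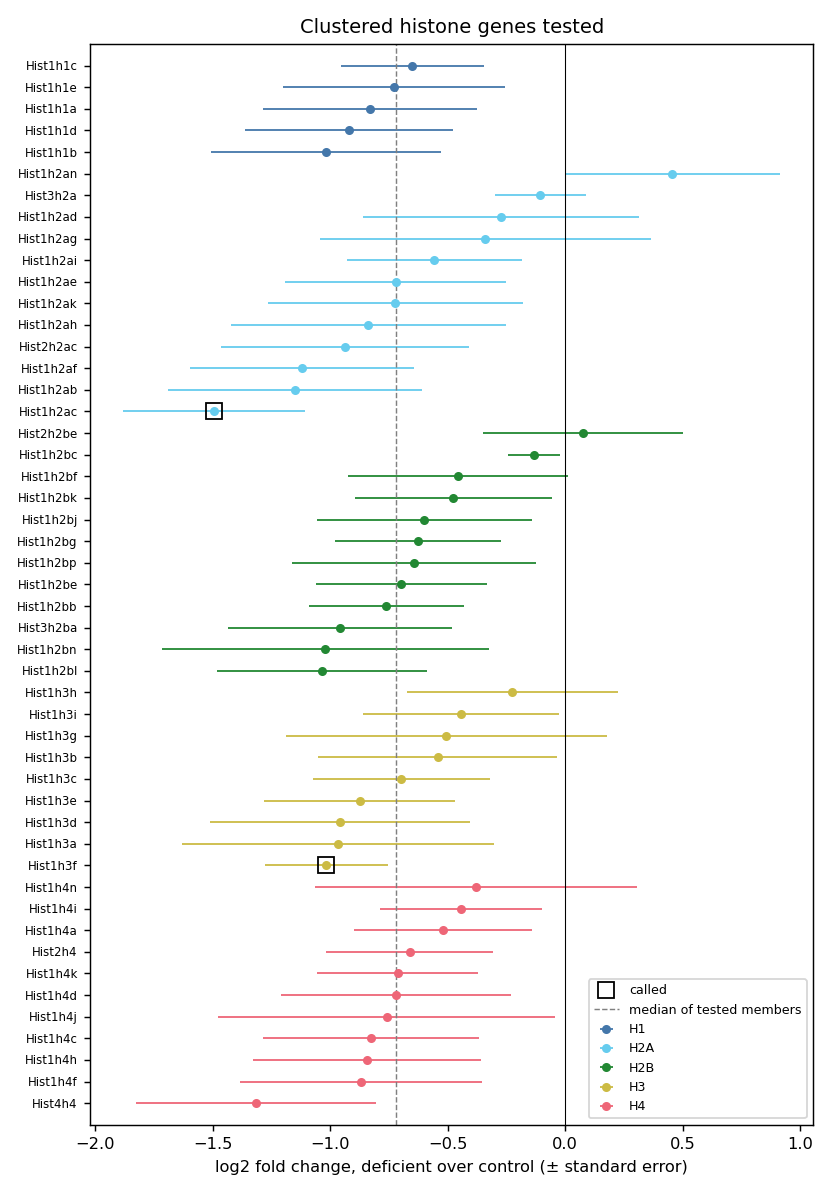
Log2 fold change of deficient over control (x axis) for each of the 49 tested clustered histone genes, with bars of 1 standard error, coloured by class and ordered within it. The 2 squares mark the called genes Hist1h2ac, at −1.49, and Hist1h3f, at −1.02, the dashed line is the median of −0.72, and Hist1h2an and Hist2h2be lie to the right of 0.

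The order of the samples was nearly the same in gene after gene. Control 2 was the highest of the 6 samples in 44 of the 49 genes, and control 3 was the lowest control in 47. Deficient 1 was the highest deficient sample in 48, and it exceeded control 3 in 47. The lowest sample was a deficient one in 46 genes, deficient 2 in 29 and deficient 3 in 17. Relative to the control mean, the median over the 49 genes of the log2 level was −0.01, 0.52 and −0.81 in controls 1, 2 and 3 and −0.15, −1.13 and −1.16 in deficient samples 1, 2 and 3. Control 3 and deficient 1 thus lay on the side of the other genotype. The 49 genes share these libraries, so their common sign is not 49 separate observations.

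**Figure D3:**
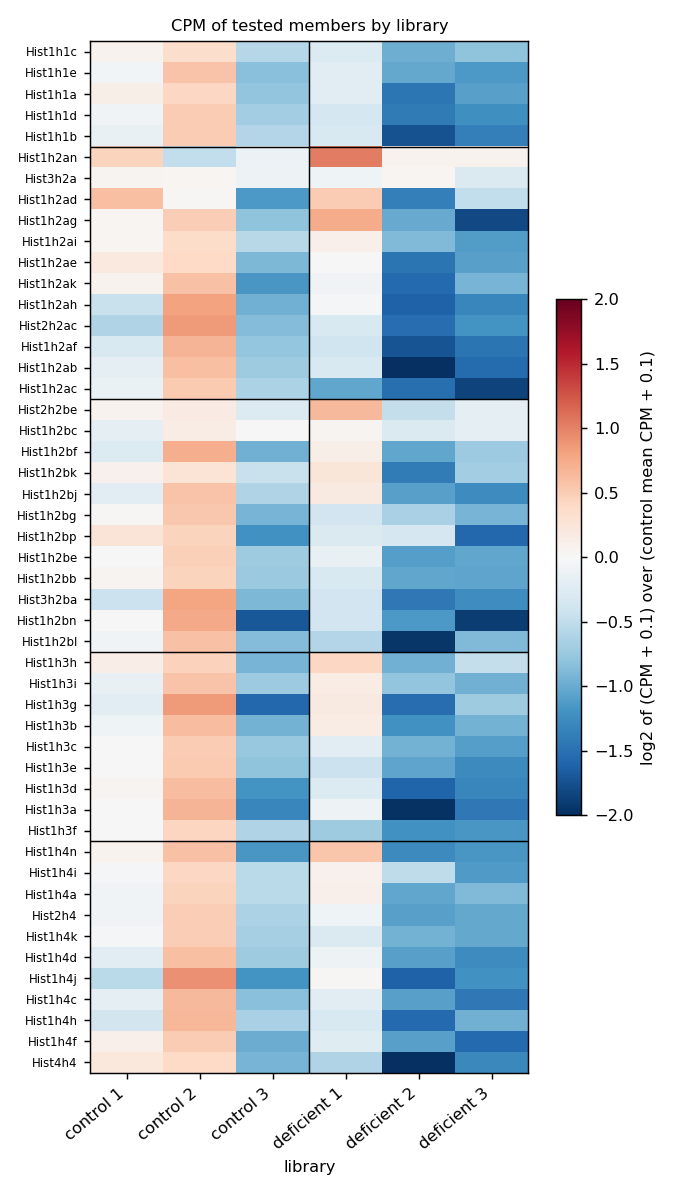
Level of each tested clustered histone gene (rows, grouped by class from H1 at the top to H4) in each of the 6 samples (columns), as log2 of CPM plus 0.1 over the control mean plus 0.1. Control 2 is red in most rows, control 3, deficient 2 and deficient 3 are blue, and Hist1h2bc and Hist3h2a stay near 0 in all samples.

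The number of members called depended on the samples and the tool. Leaving out control 1, control 2, deficient 2 or deficient 3 left 0 members called by edgeR. The calls over all genes, in either direction, went from 689 to 0, 61, 264 and 17. In each of these fits 2 members (4.0% to 4.08%) were lower at an unadjusted p under 0.05 by edgeR. Of all genes tested in them, 11.3%, 9.79%, 13.5% and 10.7% were lower at that level. The log2 fold change of Hist1h2ac in these fits was −1.54, −1.14, −1.46 and −1.29, and that of Hist1h3f was −1.01, −0.75, −0.92 and −0.95. Leaving out control 3 gave 16 of 50 members called lower (32.0%), against 8.45% of all genes tested in that fit. Leaving out deficient 1 gave 14 of 49 (28.6%), against 7.24%. The median log2 fold change of the members was −0.34 without control 2 and −1.16 without deficient 1. DESeq2 called 8 members lower (16.3%), against 6.24% of all genes, and limma-voom 3 (6.12%), against 5.94%. Without a filter on low counts 13 of 59 members were called lower (22.0%), against 3.02% of all genes. The members were thus called more often than the background by some of these fits and not by others.

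H1 binds the linker DNA between nucleosomes and helps to fold the chromatin fibre. All 5 tested H1 genes had negative log2 fold changes, from −1.02 to −0.65 with a median of −0.83, and none was called. Hist1h1c had 40.5, 49.5 and 25.9 CPM in controls and 31.8, 19.7 and 22.0 CPM in deficient samples. Control 3 lay below deficient 1 here, and the log2 fold change was −0.65 (SE 0.30, adjusted p = 0.242, edgeR). Hist1h1e had 28.9, 44.7 and 16.7 CPM in controls and 26.1, 14.7 and 13.5 CPM in deficient samples. Its groups overlapped in the same way, with a log2 fold change of −0.73 (SE 0.47, adjusted p = 0.389, edgeR).

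H2A pairs with H2B, and their dimers flank the H3-H4 tetramer in the nucleosome. Among the 12 tested H2A genes, 11 were negative, and the median log2 fold change was −0.72. Hist1h2ac, at 23681467 to 23683948 on the minus strand of chromosome 13 in GRCm38, was counted 30, 38 and 27 times in controls and 21, 19 and 19 times in deficient samples. In CPM this was 3.19, 5.08 and 2.22 in controls and 1.65, 1.16 and 0.902 in deficient samples. The groups did not overlap, and the gene fell by 1.49 on the log2 scale (SE 0.39, adjusted p = 0.0736, edgeR). Hist1h2ak had 8.30, 11.9 and 3.45 CPM in controls and 7.52, 2.63 and 4.08 CPM in deficient samples, a difference within the spread (log2 fold change −0.72, SE 0.54, adjusted p = 0.442, edgeR).

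The other members of the H2A class were not uniform. Hist3h2a, on chromosome 11, kept within a narrow range, with 6.17, 6.15 and 5.58 CPM in controls and 5.64, 6.11 and 4.89 CPM in deficient samples. Its log2 fold change was −0.11 (SE 0.19, adjusted p = 0.764, edgeR). Hist1h2an had the highest value of the 49, with 1.38, 0.669 and 0.903 CPM in controls and 2.12, 1.04 and 1.04 CPM in deficient samples. It rests on 5 to 27 counts per sample, and its log2 fold change of 0.46 (SE 0.46, adjusted p = 0.554, edgeR) is as large as its error.

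Of the 12 tested H2B genes, 11 had a negative log2 fold change and none was called, with a median of −0.63. Hist1h2bc had 259, 258 and 383 counts in controls and 415, 417 and 576 in deficient samples. Scaled to library size this was 27.6, 34.5 and 31.4 CPM in controls and 32.5, 25.5 and 27.4 CPM in deficient samples. The log2 fold change was −0.13 (SE 0.11, adjusted p = 0.470, edgeR). Deficient 1 was the highest deficient sample here too, while control 3 was not the lowest control. Hist1h2bb followed the order of most members, with 12.9, 16.9 and 7.39 CPM in controls and 9.95, 5.99 and 5.89 CPM in deficient samples (log2 fold change −0.76, SE 0.33, adjusted p = 0.187, edgeR). Hist2h2be, on chromosome 3, had 1.38, 1.47 and 1.07 CPM in controls and 2.12, 0.917 and 1.14 CPM in deficient samples. Its log2 fold change was 0.08 (SE 0.42, adjusted p = 0.929, edgeR), and the sign changed to −0.04 with limma-voom.

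H3 and H4 form the tetramer at the core of the nucleosome. The 9 tested H3 genes were all negative, from −1.02 to −0.22 with a median of −0.70. Hist1h3f, at 23544052 to 23545312 on the plus strand of chromosome 13 in GRCm38, was counted 98, 106 and 84 times in controls and 81, 73 and 98 times in deficient samples. In CPM this was 10.4, 14.2 and 6.89 in controls and 6.34, 4.46 and 4.65 in deficient samples. The groups did not overlap, although control 3 and deficient 1 were close, and the gene fell by 1.02 on the log2 scale (SE 0.26, adjusted p = 0.0761, edgeR). Hist1h3e had 23.2, 33.7 and 13.4 CPM in controls and 17.3, 11.2 and 9.64 CPM in deficient samples (log2 fold change −0.87, SE 0.41, adjusted p = 0.241, edgeR). Hist1h3c had 14.4, 20.5 and 8.45 CPM in controls and 12.5, 7.45 and 6.69 CPM in deficient samples (log2 fold change −0.70, SE 0.38, adjusted p = 0.283, edgeR). In both, control 3 lay below deficient 1.

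All 11 tested H4 genes had negative values, from −1.31 to −0.38 with a median of −0.72, and none was called. Hist1h4k had 19.7, 28.5 and 12.8 CPM in controls and 16.6, 10.5 and 9.97 CPM in deficient samples (log2 fold change −0.71, SE 0.34, adjusted p = 0.240, edgeR). Hist1h4d had 16.6, 29.3 and 11.7 CPM in controls and 17.9, 8.98 and 7.98 CPM in deficient samples (log2 fold change −0.72, SE 0.49, adjusted p = 0.405, edgeR). Deficient 1 lay above control 1 as well as control 3 in this gene. Hist4h4, which lies alone on chromosome 6, had 4.999, 5.75 and 2.22 CPM in controls and 2.82, 0.672 and 1.71 CPM in deficient samples. Its log2 fold change of −1.31 (SE 0.51, adjusted p = 0.142, edgeR) was the second lowest of the 49 but did not pass the test, and deficient 1 exceeded control 3.

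Many H2A and H2B genes stand head to head and share the DNA between their start sites. There were 12 such divergent pairs with start sites 176 to 306 bases apart, and both genes were tested in 9. The called gene Hist1h2ac forms a pair with Hist1h2bc, which was near 0 in log2 fold change. Their start sites, at 23683948 and 23684199 on chromosome 13, are 251 bases apart. The RefSeq promoter of Hist1h2ac, chr13:23683910-23684209 on the minus strand of GRCm38.p6, covers the whole interval and is printed because both genes start in it. Capitals mark the CCAAT box, the TATA box in the form TATAAA and the octamer ATTTGCAT, each on either strand.
Hist1h2ac promoter: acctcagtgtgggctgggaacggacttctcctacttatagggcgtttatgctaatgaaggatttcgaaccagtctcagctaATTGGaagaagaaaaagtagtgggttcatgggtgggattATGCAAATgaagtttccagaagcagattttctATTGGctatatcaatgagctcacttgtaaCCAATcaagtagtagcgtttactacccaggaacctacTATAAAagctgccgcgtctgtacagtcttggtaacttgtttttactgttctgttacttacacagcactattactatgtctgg

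The ratio of Hist1h2ac to Hist1h2bc counts was 0.116, 0.147 and 0.0705 in controls and 0.0506, 0.0456 and 0.0330 in deficient samples. Because both genes are read from the same library, library size cancels in this ratio. The groups did not overlap, and an exact permutation test of 3 against 3 cannot go below p = 0.1. The pair Hist2h2ac and Hist2h2be on chromosome 3 had ratios of 1.23, 3.27 and 1.31 in controls and 1, 0.933 and 0.958 in deficient samples, again without overlap, on 11 to 36 counts per gene and sample. The ratios overlapped between genotypes in the other 7 pairs. Taken singly, 16.4% of all tested genes had every deficient sample below every control sample. Ratios of other gene pairs were not computed. These 2 pairs were picked out after their values were seen.

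**Figure D4:**
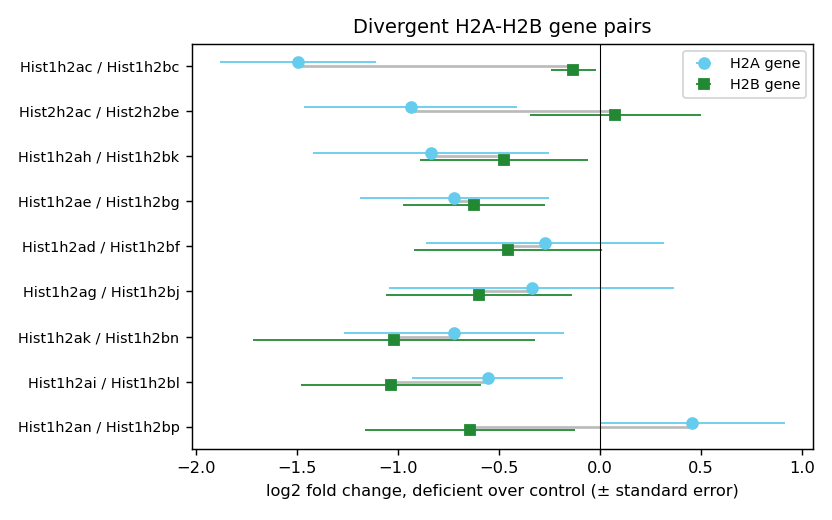
Log2 fold change of deficient over control (x axis) of the H2A gene (circles) and the H2B gene (squares) of the 9 divergent pairs with both genes tested, with bars of 1 standard error. In the top row Hist1h2ac is at −1.49 and Hist1h2bc at −0.13, and in the second Hist2h2ac is at −0.94 and Hist2h2be at 0.08.

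Promoters of 59 members were matched in RefSeq (GRCm38.p6), each from 250 bases before to 50 bases after the start. A gene with several promoters was counted once, as holding a motif if any of them did, and all shares of promoters here count genes in this way. CCAAT was found on either strand in 84.7% of the members and in 41.1% of all 27025 genes with a promoter. It was in every matched H1, H2A, H2B and H3 promoter and in 3 of 12 H4 promoters. TATAAA was in 59.3% of members and 15.7% of all promoters. The octamer ATTTGCAT was in 41.2% of H2A and 42.9% of H2B promoters, in 0 of the other classes and in 1.97% of all promoters. The H1 box AAACACA was in 83.3% of H1 promoters and in 8.22% of all. The searched motifs do not contain one another, and a match is a description of the letters only.

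The annotated 3′ ends of the members differ, but a gene model does not show which mRNAs a poly(A) library kept. In 21 genes the GENCODE M21 model ends at the stem-loop, in 22 it holds a stem-loop and runs on for at least 100 bases, in 17 it stops near the stop codon without a stem-loop, and in 5 it runs on without a stem-loop. The median log2 fold change was −0.60 over the 15 tested genes that end at the stem-loop and −0.73 over the 19 that run past it. It was −0.78 over the 12 tested genes whose model stops near the stop codon. Both called genes belong to those whose model runs past the stem-loop. For the 3 tested genes that run on without a stem-loop the median was −0.13, and they were Hist1h2bc at −0.13, Hist2h2be at 0.08 and Hist1h2bp at −0.64. Hist3h2a, whose log2 fold change was also close to 0, has a model that runs 1643 bases past its stem-loop. That of Hist1h2ac runs 2010 bases past it, so an extended model did not go with a single value.

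Sequence shared among members limits how exactly counts can be given to a gene. Over the 65 genes the median share of 100-base windows that also occur in another gene was 38.5%, and how reads with several matches were counted is not given in the sources used here. Log2 fold changes had a median of −0.72 over the 34 tested genes with under 50% of windows shared, which included both called genes, and the 15 others had a median of −0.54. Hist1h2ac shared 8.06% of its windows, Hist1h2bc 25.4% and Hist1h3f 34.3%.

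Of 16 listed genes that act in histone transcription and mRNA processing, 15 were tested, with a median log2 fold change of −0.04. None was called by edgeR, and their summed CPM overlapped between genotypes. At an unadjusted p under 0.05, 3 were lower, against 15.2% of all tested genes. Slbp, the stem-loop binding protein, had 20.4, 24.2 and 19.4 CPM in controls and 22.7, 24.0 and 23.7 CPM in deficient samples (log2 fold change 0.15, SE 0.10, adjusted p = 0.380, edgeR). Npat, which activates histone transcription in S phase, had 11.0, 12.7 and 10.7 CPM in controls and 7.13, 11.0 and 6.84 CPM in deficient samples (log2 fold change −0.45, SE 0.20, adjusted p = 0.163, edgeR). Casp8ap2, another factor of the histone locus body, had a log2 fold change of −0.45 (adjusted p = 0.116, edgeR). That of Ncbp1, a cap-binding protein, was −0.36 (adjusted p = 0.105, edgeR).

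Histone variants come from genes outside the clusters, and most of their mRNAs are made outside S phase too and carry poly(A) tails. H2afx, which encodes H2A.X, also makes a replication-dependent mRNA with a stem-loop. All 11 listed were tested. None was called higher and 2 were called lower, against 4.88% of all tested genes. H1fx, a linker histone, had 6.06, 9.77 and 3.61 CPM in controls and 2.59, 2.51 and 1.95 CPM in deficient samples, without overlap, and fell by 1.45 on the log2 scale (SE 0.34, adjusted p = 0.0660, edgeR). The other called gene, H2afx, was at a log2 fold change of −0.75. H1f0, another linker histone, had 28.8, 30.4 and 20.4 CPM in controls and 18.7, 19.9 and 14.8 CPM in deficient samples. Its adjusted p was 0.0901 (edgeR), but its log2 fold change of −0.57 missed the size threshold. The summed CPM of the variants was 1165, 1164 and 1177 in controls and 1244, 1240 and 1309 in deficient samples, above every control and opposite in sign to the median log2 fold change of −0.32. Most of that sum is H3f3b, an H3.3 gene, with 715, 716 and 750 CPM in controls and 779, 803 and 834 CPM in deficient samples. H2afx and H3f3b were named after their values were seen.

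Histone chaperones carry new histones to DNA. Of 21 tested, none was called higher and 1 was called lower, against 4.88% of all tested genes. This was Chaf1a, the large subunit of chromatin assembly factor 1, with 13.1, 13.9 and 9.19 CPM in controls and 7.99, 6.66 and 6.60 CPM in deficient samples (log2 fold change −0.76, SE 0.19, adjusted p = 0.0671, edgeR). Atrx, which deposits H3.3 together with Daxx, had 81.5, 78.3 and 79.2 CPM in controls and 63.5, 57.7 and 41.8 CPM in deficient samples. Its log2 fold change of −0.56 (SE 0.14, adjusted p = 0.0828, edgeR) missed the size threshold.

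DNA replication genes act in the same phase of the cell cycle as the clustered histone genes. The median log2 fold change was −0.40 over 48 tested. Of these, none was called higher and 6 were called lower, against 4.88% of all tested genes. Cdc6, which loads the replicative helicase, had 6.49, 5.35 and 3.86 CPM in controls and 2.74, 2.20 and 2.14 CPM in deficient samples (log2 fold change −1.15, SE 0.27, adjusted p = 0.0647, edgeR). Mcm6, a subunit of that helicase, had a log2 fold change of −0.45 (SE 0.11, adjusted p = 0.0647, edgeR), short of the size threshold. The calls of H1fx, Chaf1a and Cdc6 were each lost without control 1, control 2, deficient 2 or deficient 3. Over the processing, variant, chaperone and replication lists together, 9 genes were called, against 0 without control 1, control 2 or deficient 3, 1 without deficient 2, 21 without control 3 and 22 without deficient 1. The summed CPM of the list was 752, 781 and 677 in controls and 704, 601 and 601 in deficient samples, so control 2 was highest and control 3 lowest among controls here too, and deficient 1 was highest among deficient samples. The ratio of summed histone to summed replication CPM was 0.648, 0.918 and 0.456 in controls and 0.643, 0.392 and 0.412 in deficient samples, and it overlapped.

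Marker genes of other cell types varied across the same samples. All 12 macrophage markers had positive log2 fold changes, with a median of 0.19 and a highest value of 0.25. None was called by edgeR, since all lay below the size threshold, and 1 passed by adjusted p alone. At an unadjusted p under 0.05, 9 were higher, against 1684 of all 13961 tested genes. Their summed level was 12900, 12120 and 14060 CPM in controls and 14190, 14810 and 15480 CPM in deficient samples. It was lowest in control 2, where the histone sum was highest, and every deficient sample lay above every control. The 29 neural crest markers summed to 311, 448 and 249 CPM in controls and 205, 155 and 162 CPM in deficient samples. Of 26 tested crest markers 12 were called lower, against 4.88% of all tested genes. Crest markers were thus detected in every sample, beside a macrophage marker sum of 12120 CPM or more, and neither sum is scaled to gene length. The 10 erythroid markers summed to 17.4 to 75.1 CPM, highest in control 2, and none of the 9 tested was called. The ratio of the histone sum to the crest marker sum was 1.57, 1.60 and 1.24 in controls and 2.21, 1.52 and 1.53 in deficient samples, which overlapped, with the deficient mean above the control mean. The part of these cells in the histone values was not tested.

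**Figure D5:**
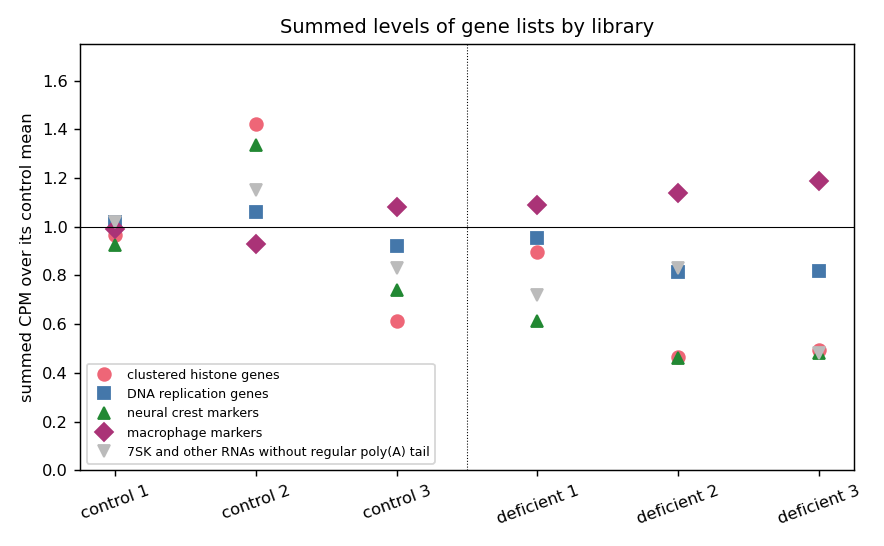
Summed CPM of clustered histone genes and of 4 other gene lists in each of the 6 samples, each divided by its own control mean (y axis, 1 is the control mean). The histone and crest sums are both highest in control 2 and lowest in deficient 2, at 235 and 155 CPM, while the macrophage sum is lowest in control 2 and highest in deficient 3.

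RNAs that lack a regular poly(A) tail, as most histone mRNAs do, were read beside them. The list of 12 also held CT010467.1 and Lars2, whose mRNA is polyadenylated. Of the 12, 8 were tested, 7 had negative log2 fold changes and the median over the 8 was −0.76. None was called by edgeR. At an unadjusted p under 0.05 (edgeR), 2 were lower, against 15.2% of all tested genes. Without CT010467.1 and Lars2, 5 of 6 tested RNAs were negative, with a median of −0.68, and the exception was Neat1, at 0.14. Whether each listed RNA lacked a poly(A) tail in these cells was not tested. Malat1, a nuclear RNA, had 1020, 1048 and 847 CPM in controls and 612, 667 and 340 CPM in deficient samples, without overlap (log2 fold change −0.85, SE 0.28, adjusted p = 0.143, edgeR). Rn7sk, the 7SK RNA, had 295, 444 and 185 CPM in controls and 244, 330 and 139 CPM in deficient samples. Its highest sample was control 2, as for the histone genes, but its highest deficient sample was deficient 2, where the histone sum was lowest. The full list, mostly CT010467.1 and Lars2, summed to 164800, 225200 and 104700 CPM in controls. In deficient samples it summed to 110000, 121300 and 62650 CPM, with overlap and a ratio of deficient to control mean of 0.594. Control 2 was highest and control 3 lowest among controls, as in the histone sum, but deficient 2 was the highest deficient sample. These counts are part of the total behind every share. Without CT010467.1 and Lars2 the list summed to 1632, 1841 and 1326 CPM in controls and 1148, 1328 and 767 CPM in deficient samples. The part of poly(A) selection in the histone values was not tested. Malat1, Neat1, Rn7sk, CT010467.1 and Lars2 were named after their values were seen.

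The targeted genes were read as a check of the labels. Smarcc1 had 42.1, 55.0 and 35.1 CPM in controls and 29.4, 26.4 and 24.5 CPM in deficient samples, without overlap (log2 fold change −0.71, SE 0.16, adjusted p = 0.0676, edgeR). Smarcc2 had 91.8, 89.9 and 92.9 CPM in controls and 85.9, 82.3 and 86.8 CPM in deficient samples (log2 fold change −0.11, SE 0.06, adjusted p = 0.251, edgeR). Counts over a whole gene need not show the deletion of the floxed part. The cause of the Smarcc1 and Smarcc2 values was not tested.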

How the data were processed

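RNAseq was read for GFP-positive NCCs of 3 control and 3 deficient embryos. According to the study's methods and the submitters' processing notes, the authors made strand-specific poly(A) libraries, trimmed paired-end reads (cutadapt 1.18, FastQC 0.11.7), used STAR for alignment to GRCm38 and obtained gene counts from featureCounts. The authors deposited the resulting raw counts, without normalization. The annotation release, the strand setting and the treatment of reads with several matches are not given in the sources used here.

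Identifiers were joined to GENCODE M21 without their version, which differed for 21 members. Counts were tested in R 4.3.3 with edgeR 4.0.16 (filterByExpr with a minimum count of 10, TMM, robust quasi-likelihood fit, genotype as its only term). CPM used normalized library sizes. Totals ran from 8191219 to 19808620 counts, with a common biological coefficient of variation of 12.8%. The methods give 3 embryos per genotype, while the labels tie no sample to an embryo, so p-values measure the spread between these samples. In data simulated for 13746 genes of this comparison, 84% of genes changed by a log2 fold of 1 were recovered and 92% at 2, with 8 false calls. The changed genes had a mean of at least 2 CPM, and every gene was given the spread typical of its level. Members had a median standard error of 0.46, against 0.17 over all tested genes, so these rates do not describe the members. Replicate pairs all differed by more than sampling noise.

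The alternatives were DESeq2 1.42.0, limma-voom (limma 3.58.1), library totals, upper quartile scaling, other filters and thresholds, a replicate block and each sample left out. Within each class the 2 genes with the highest mean CPM were named. Over all tested members, the called genes and the 2 lowest and 2 highest log2 fold changes were named. So were the genes with the 2 lowest p-values of each related list, Slbp, Npat, Smarcc1 and Smarcc2. Other named genes were picked after their values were seen. The members and lists were chosen with earlier results of these data known. Figures were made with Python 3.11.15 and matplotlib 3.10.9.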

Additional observations from a re-analysis of the deposited data

How the results depend on the processing

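The direction of the members' median and of the share of counts held in every alternative: the median log2 fold change ran from −1.16 to −0.34 and the ratio of shares from 0.513 to 0.798. The count of members called lower was 2, and it was 8 of 49 tested with DESeq2 (16.3%, against 6.24% of all genes), 13 of 59 without a filter on low counts (22.0%, against 3.02%) and 0 at an adjusted p of 0.05. Leaving out 1 sample gave 0 to 16 members, 0 to 1245 of all genes against 689 (0 without control 1) and 0 to 22 of the related lists against 9. No member was called higher in any alternative. All genes called numbered 1665 by adjusted p alone and 94 at 0.05. Genes of the related lists called were 14 without the filter, 18 by adjusted p alone and 0 at 0.05. Hist2h2be changed sign with limma-voom (−0.043), and leaving out 1 sample moved it between −0.32 (deficient 1) and 0.30 (deficient 2), with −0.06 without control 3. Hist1h2ac, Hist1h3f, H1fx, Chaf1a, Cdc6 and Smarcc1 each lost their call without control 1, control 2, deficient 2 or deficient 3 and at an adjusted p of 0.05. The cause was not tested.

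The replicate numbers come from the sample titles and are shared between genotypes, while the column labels number the deficient samples otherwise. The deviations of same-numbered samples correlated at 0.03, −0.03 and 0.29, and those of other combinations at −0.30 to 0.26. With 3 samples per genotype, these values cannot decide whether samples are paired. With a replicate block 8 members (16.3%, against 8.19% of all genes called lower), 1164 of all genes and 18 genes of the related lists were called. The 10 untested members with counts had at most 20 in a sample, and the cause was not tested.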

Other observations

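Pseudogenes and neighbours of the clusters were read in the same libraries. The pseudogene Hist1h2al had 43, 39 and 38 counts in controls and 32, 36 and 26 in deficient samples. Scaled to library size this was 4.57, 5.22 and 3.12 CPM in controls and 2.51, 2.20 and 1.23 CPM in deficient samples, without overlap. Hist3h2bb-ps had 14, 15 and 4 counts in controls and 5, 7 and 3 in deficient samples, and Hist1h2aj had at most 2.

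The Hist1 cluster on chromosome 13 (21715763 to 23934851, GRCm38) also holds 45 other protein-coding genes, of which 4 were tested and none was called by edgeR. At an unadjusted p under 0.05 (edgeR), 1 was lower and 1 was higher. Of all 13961 tested genes, 2129 were lower and 1684 were higher at that level. The log2 fold change was 0.30 (SE 0.14) for Abt1, −0.06 (SE 0.16) for Hfe, −1.19 (SE 0.44) for Zfp184 and −0.22 (SE 0.18) for Zfp322a. These genes were named because they were the 4 tested.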
